A study of Sus scrofa with 120 samples.

Results

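Expression of 9 genes of cellular calcium handling was followed across all 30 groups of a study on pig cartilage cells. They are the IP3 receptor genes ITPR1, ITPR2 and ITPR3, the reticulum pump gene ATP2A2, the plasma membrane pump genes ATP2B1 and ATP2B4, the store sensor genes STIM1 and STIM2, and the channel gene ORAI1. The genes were chosen by name and role, with earlier results of these data known, as the rows of the deposited table that carry those symbols. Each symbol matched a single row, which gives 9 of 31907 gene identifiers. All 9 passed the filter on low counts in each model.

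A cell at rest keeps calcium low in the cytosol and high in the endoplasmic reticulum. Phospholipase C makes the messenger IP3, which opens IP3 receptors and lets stored calcium out, and the SERCA pump encoded by ATP2A2 returns it. Plasma membrane calcium pumps, encoded by ATP2B1 and ATP2B4 among others, push calcium out of the cell. When the store empties, the membrane proteins STIM1 and STIM2 sense the loss and open ORAI1 channels in the plasma membrane, a route called store-operated calcium entry. In chondrocytes, the cells of cartilage, calcium signals are among the early responses to loading, and TRPV4 and PIEZO1 are channels that pass calcium after a mechanical stimulus.

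RNA was sequenced from primary chondrocytes of pig femoral cartilage cast in 2% agarose, in 2 experiments with 4 libraries in each group. In the TRPV4 experiment, with 48 libraries, the constructs received the TRPV4 agonist GSK101 at 1 nM, the inflammatory cytokine IL-1 at 1 ng/mL, cyclic loading at 10% deformation and 1 Hz for 3 h with the TRPV4 antagonist GSK205, the same loading without it, GSK205 alone at 10 uM, or the DMSO vehicle, in which constructs were left free of load. In the PIEZO1 experiment, with 72 libraries, cells had been transfected with a pool of 3 siRNAs against PIEZO1 (siPIEZO1), with a non-targeting siRNA (siNTC) or not at all (NT). Each of these 3 states was then compressed once to 80% deformation at 1.9% per min, treated with the PIEZO1 agonist Yoda1 at 5 uM, or kept in DMSO vehicle. Both experiments were harvested at 3 h and 9 h after the stimulus began. The doses of GSK205 and Yoda1 are those of the design text, since the sample labels print the same figures with the unit mM. The labels name IL-1 in some fields and IL-1a in another, and they call the siRNA cells transduced in the titles and transfected in the protocol. Whether the 4 replicates stand for separate animals or cultures is not stated in the labels, so every p-value measures only the spread between libraries, which may be technical.

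Libraries held 20651530 to 80223797 counts in the TRPV4 experiment and 36807992 to 66240251 in the PIEZO1 experiment, and the coefficient of biological variation fitted over all genes was 0.0874 at 9 h and 0.107 at 3 h in the TRPV4 experiment, against 0.300 and 0.282 in the PIEZO1 experiment. A difference of a given size therefore had a larger SE in the PIEZO1 experiment. Of 14 chondrocyte markers, 12 were in the table, and all 12 averaged above 1 CPM (counts scaled to a common library total) in every group. Their sum was 80531 to 146708 CPM in TRPV4 libraries and 15340 to 43969 CPM in PIEZO1 libraries. The sum of 5 fibroblast markers was 487 to 1207 and 219 to 2873 CPM. Library kits also differed between the experiments, so differences of cells and of method cannot be told apart there. Erythroid, adipocyte and skeletal muscle markers summed to at most 3.89 CPM in any library. PIEZO1 RNA was 33.9% lower in siPIEZO1 than in siNTC over the 3 stimuli at 9 h (adjusted p = 0.001) and 25.7% lower at 3 h (adjusted p = 0.0066), and in vehicle alone it missed the threshold at both times (adjusted p = 0.062 and 0.58). Group means of PIEZO1 RNA ran from 3.46 to 7.79 CPM in the PIEZO1 experiment and from 89.6 to 159 CPM in the TRPV4 experiment. In bulk RNA, fewer cells of a type and less RNA per cell cannot be told apart.

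Levels are given in CPM scaled by TMM over an experiment, changes as log2 fold change ± SE, and a change is called where the adjusted p is under 0.05. CPM is not divided by transcript length, so levels are compared between groups and not between genes. GSK101, IL-1, loading and GSK205 were each set against the same 4 DMSO libraries of their time, so those comparisons share controls.

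At 9 h, the agonist and the cytokine moved most of these genes, as they did most of all genes tested. Of the members called under both, only ATP2B4 moved in opposite directions. GSK101 raised ITPR3 and ATP2B4 most, whereas IL-1 raised ATP2A2 and ITPR2 most, and both raised ITPR1 and ORAI1 by similar amounts. Against DMSO at 9 h, GSK101 called 7 of the 9 genes, 5 higher and 2 lower, beside 62.3% of all genes tested (29.3% higher and 33% lower). IL-1 called all 9 at 9 h, 5 higher and 4 lower, beside 65.1% of all genes (30.6% higher and 34.5% lower), and DESeq2 called 8, without STIM2. At 3 h, GSK101 called 7 of 9, all higher, beside 40% of all genes (22% higher and 18% lower), and IL-1 called 2 of 9, both higher, beside 32.2% (18.5% higher and 13.7% lower). The median change of the 9 genes under GSK101 was 0.50 at 9 h and 0.39 at 3 h, against -0.07 and 0.01 over all genes tested. Under IL-1 it was 0.44 at 9 h and 0.01 at 3 h, against -0.07 and 0.01.

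Loading alone called 6 of the 9 genes at 9 h, 1 higher and 5 lower, beside 23.7% of all genes (12.5% higher and 11.2% lower), with a median of -0.31 against 0.01 over all genes. At 3 h it called 1 of 9, beside 10.2%. GSK205 alone called 4 of 9 at 9 h, 1 higher and 3 lower, beside 21.2% (12.1% higher and 9.15% lower), and 2 of 9 at 3 h, 1 in each direction, beside 27.1% (14.6% higher and 12.5% lower).

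**Figure D1:**
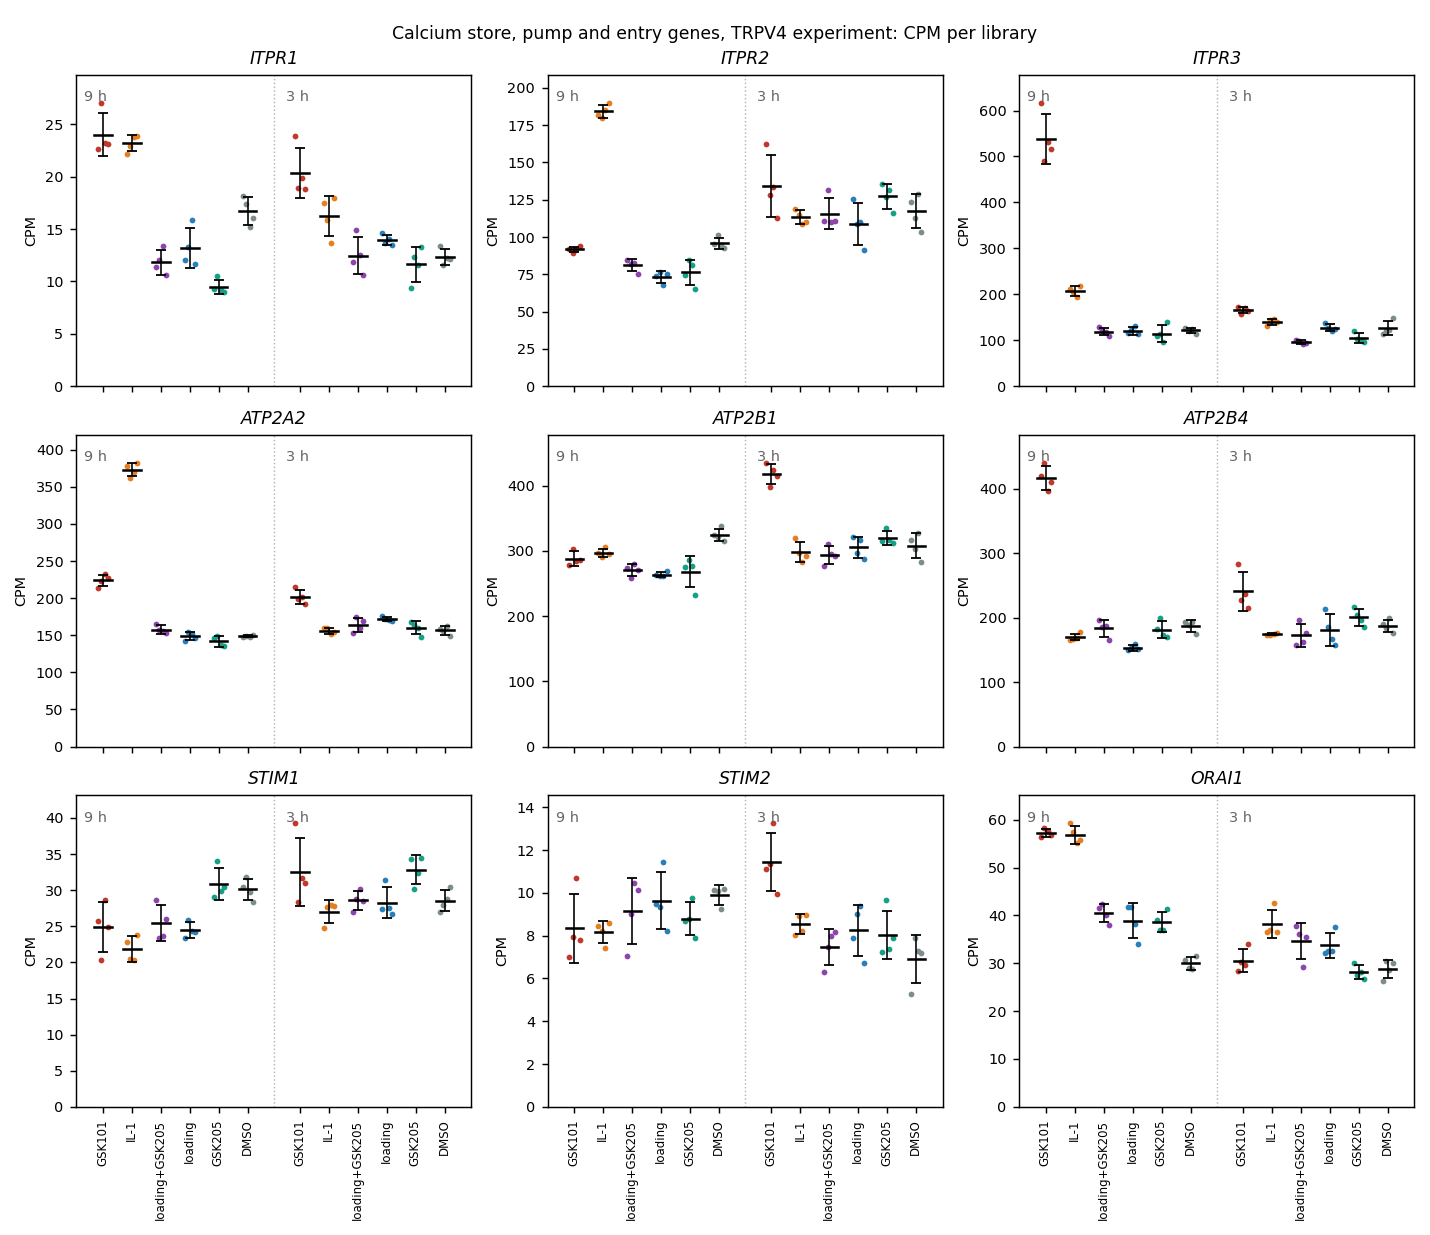
CPM of the 9 genes in every library of the TRPV4 experiment, by condition, with 9 h left and 3 h right in each panel. Dots are libraries, and the line and bar are the mean ± SD of 4. ITPR3 and ATP2B4 stand highest under GSK101 at 9 h, ATP2A2 and ITPR2 under IL-1 at 9 h, and ORAI1 is high under both.

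**Figure D2:**
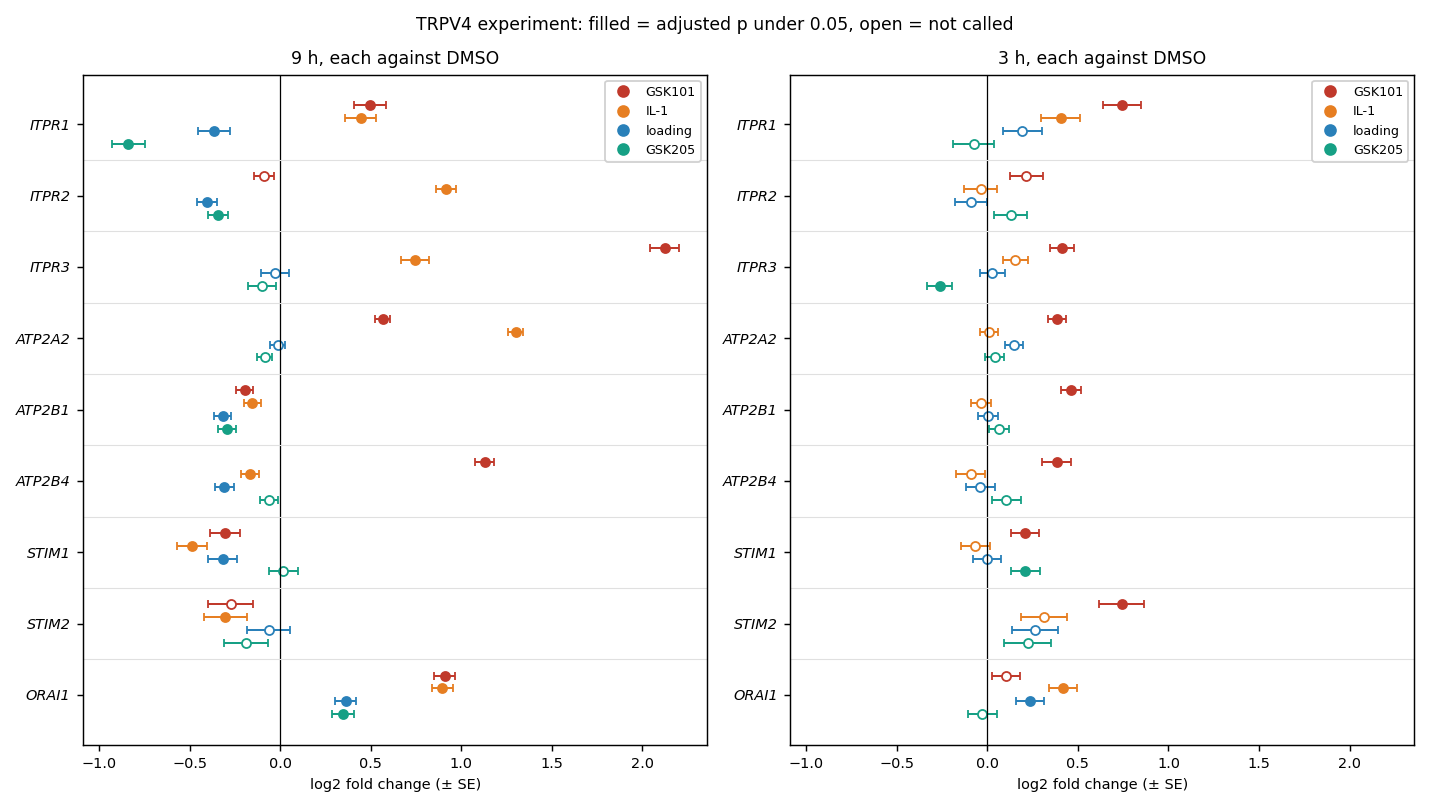
Log2 fold change ± SE of each gene against DMSO in the TRPV4 experiment at 9 h (left) and 3 h (right). Filled points passed the test and open points did not. At 9 h, the points of ITPR3 under GSK101 (2.12) and of ATP2A2 under IL-1 (1.30) lie farthest to the right.

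The 3 IP3 receptor genes, which encode the channels of stored calcium release, differed in which stimulus raised them. ITPR1 (ENSSSCG00000023437) lies on chromosome 13 from 61068131 to 61398918 (Sscrofa11.1), and its span overlaps a long noncoding RNA gene. At 9 h, ITPR1 had 22.6, 27.04, 23.2 and 23.1 CPM in GSK101 libraries, against 18.1, 17.4, 15.2 and 16.1 CPM in DMSO libraries. IL-1 libraries had 22.2, 22.9, 23.7 and 23.8 CPM. Every GSK101 and IL-1 library was above every DMSO library. ITPR1 rose by 0.50 ± 0.09 (adjusted p = 1.1e-05) under GSK101 and by 0.44 ± 0.09 (adjusted p = 4.1e-05) under IL-1, and the direct comparison of GSK101 with IL-1 did not pass (0.05 ± 0.09, adjusted p = 0.64). At 3 h, GSK101 libraries had 23.8, 18.9, 19.9 and 18.8 CPM and DMSO libraries 13.4, 11.6, 12.2 and 12.1 CPM, a rise of 0.74 ± 0.11 (adjusted p = 1.6e-06). IL-1 libraries ranged from 13.7 to 17.9 CPM at 3 h, a rise of 0.40 ± 0.11 (adjusted p = 0.0044). Leaving out GSK101 replicate 1 or IL-1 replicate 3 ended the call of the 3 h difference between GSK101 and IL-1 for ITPR1 (0.34 ± 0.10 (adjusted p = 0.009) with all libraries, adjusted p = 0.057 and 0.058 without them).

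Under loading and under GSK205, ITPR1 fell at 9 h. Loading left 12.0, 13.3, 15.9 and 11.6 CPM and GSK205 alone 9.31, 10.5, 9.14 and 8.95 CPM, against the DMSO values above. ITPR1 fell by 0.37 ± 0.09 under loading (adjusted p = 0.0025) and by 0.84 ± 0.09 under GSK205 (adjusted p = 5.9e-08). The loading and DMSO libraries overlapped, and the GSK205 libraries were all lower than every DMSO library. Loading with GSK205 gave 11.4, 12.0, 13.4 and 10.6 CPM, which was above GSK205 alone by 0.31 ± 0.09 (adjusted p = 0.018). That call was lost without replicate 3 of loading with GSK205 (0.25, adjusted p = 0.081). In descending order the 9 h means of ITPR1 were GSK101, IL-1, DMSO, loading, loading with GSK205 and GSK205, and the libraries of GSK101 and IL-1, of DMSO and loading, and of loading with and without GSK205 overlapped. At 3 h, loading (14.0 ± 0.485 CPM), loading with GSK205 (12.5 ± 1.79) and GSK205 (11.6 ± 1.67) were set beside DMSO (12.3 ± 0.743; SD, n = 4 each). The loading libraries were all above every DMSO library, but none of these differences passed.

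ITPR2 (ENSSSCG00000000555) lies on chromosome 5 from 46935923 to 47465681, and its span overlaps another protein-coding gene. Its marked change was the rise under IL-1 at 9 h, with 182, 179.7, 185 and 189.9 CPM in IL-1 libraries and 95.2, 101.3, 94.5 and 92.5 CPM in DMSO libraries. ITPR2 rose by 0.92 ± 0.06 (adjusted p = 9.8e-16), and the groups stood far apart. GSK101 libraries had 91.7, 89.6, 91.8 and 93.9 CPM, which did not pass against DMSO (-0.09 ± 0.06, adjusted p = 0.17) and was lower than IL-1 by 1.01 ± 0.06 (adjusted p = 1.5e-16). Under loading ITPR2 had 74.1, 76.5, 67.8 and 75.0 CPM and under GSK205 74.7, 84.7, 81.0 and 65.3 CPM at 9 h. It fell by 0.40 ± 0.06 under loading (adjusted p = 3.2e-06) and by 0.34 ± 0.06 under GSK205 (adjusted p = 3.3e-05), with every library under every DMSO library. Loading with GSK205 had 81.1 ± 4.05 CPM. The 9 h order was IL-1, DMSO, GSK101, loading with GSK205, GSK205 and loading, where DMSO overlapped GSK101 and the last 3 groups overlapped each other.

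At 3 h, ITPR2 averaged 134 ± 20.8 CPM in GSK101, 113 ± 4.52 in IL-1, 116 ± 10.3 in loading with GSK205, 109 ± 14.0 in loading, 127 ± 8.49 in GSK205 and 117 ± 11.4 in DMSO (SD, n = 4 each). None of these passed against DMSO at 3 h. The nearest was GSK101, at 0.22 ± 0.09 (adjusted p = 0.055), which passed without GSK101 replicate 4 (0.29, adjusted p = 0.011), without DMSO replicate 1 (0.24, adjusted p = 0.047) without DMSO replicate 3 (0.26, adjusted p = 0.033), with no filter on low counts (0.20, adjusted p = 0.032) and with the replicate number as a block (0.21, adjusted p = 0.019). ITPR2 was higher in GSK101 than in IL-1 at 3 h by 0.25 ± 0.09 (adjusted p = 0.023), and this call was lost without GSK101 replicate 1 (0.15, adjusted p = 0.18), IL-1 replicate 3 (0.23, adjusted p = 0.063) or IL-1 replicate 4 (0.24, adjusted p = 0.056).

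ITPR3 (ENSSSCG00000001518), on chromosome 7 from 29835922 to 29901305, showed the largest change of the 9 genes against DMSO. At 9 h, GSK101 libraries had 617, 491, 531 and 517 CPM, against 128, 119, 124 and 115 CPM in DMSO libraries. ITPR3 rose by 2.12 ± 0.08 (adjusted p = 2.7e-21). IL-1 libraries had 211, 205, 194 and 219 CPM, a rise of 0.74 ± 0.08 (adjusted p = 3.3e-10). The lowest GSK101 library was thus above the highest IL-1 library, and GSK101 was higher than IL-1 by 1.38 ± 0.08 (adjusted p = 1.2e-16). Loading (121 ± 8.22 CPM), loading with GSK205 (119 ± 7.76) and GSK205 (115 ± 18.1) overlapped DMSO (122 ± 5.86; SD, n = 4 each) at 9 h and did not pass. Without GSK205 replicate 4, which was the highest of its group, ITPR3 was called lower under GSK205 at 9 h (-0.21, adjusted p = 0.027).

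At 3 h, ITPR3 had 172, 158, 170.4 and 163 CPM in GSK101 libraries, against 114, 119.6, 123 and 149 CPM in DMSO libraries, a rise of 0.41 ± 0.07 (adjusted p = 1.4e-05). IL-1 libraries averaged 139.6 ± 6.85 CPM (SD, n = 4) and did not pass (0.15 ± 0.07, adjusted p = 0.085), although they did without DMSO replicate 4 (0.24, adjusted p = 0.004). That replicate, at 149 CPM, was the highest DMSO library. GSK205 lowered ITPR3 at 3 h, with 121, 102, 100.2 and 96.6 CPM and a change of -0.26 ± 0.07 (adjusted p = 0.0044) against DMSO, though the groups overlapped. Loading with GSK205 had 100.0, 99.2, 92.9 and 93.4 CPM and loading 138, 126, 121 and 126 CPM, so every loaded library with GSK205 was under every loaded library without it, and the change was -0.41 ± 0.07 (adjusted p = 8e-05). Loading alone did not change ITPR3 detectably at 3 h (0.03 ± 0.07, adjusted p = 0.87).

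ATP2A2 (ENSSSCG00000034386) encodes the SERCA pump that refills the reticulum, and lies on chromosome 14 from 31674659 to 31744981, where its span overlaps ANAPC7, a gene of the anaphase-promoting complex. At 9 h, IL-1 libraries had 378, 362, 370.4 and 382 CPM and GSK101 libraries 214, 223, 232 and 227 CPM, against 147, 149, 148 and 150.2 CPM in DMSO libraries. ATP2A2 rose by 1.30 ± 0.04 (adjusted p = 3e-23) under IL-1 and by 0.57 ± 0.04 (adjusted p = 1.6e-13) under GSK101. The 3 groups did not overlap, and GSK101 was lower than IL-1 by 0.74 ± 0.04 (adjusted p = 1.7e-16). At 3 h, GSK101 libraries had 215, 198, 201 and 192 CPM and DMSO libraries 158, 156, 163 and 149 CPM, a rise of 0.39 ± 0.05 (adjusted p = 2.5e-07), whereas IL-1 libraries (156 ± 4.02 CPM) were near DMSO (0.01 ± 0.05, adjusted p = 0.91). ANAPC7, whose reads may not have been told apart from those of ATP2A2 where they overlap, changed by 0.21 ± 0.04 under IL-1 at 9 h (adjusted p = 0.00011) and by 0.06 ± 0.04 under GSK101 (adjusted p = 0.28).

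In the loaded and antagonist groups, differences of ATP2A2 were small. At 9 h it averaged 158 ± 5.69 CPM in loading with GSK205, 149 ± 5.56 in loading, 142 ± 7.13 in GSK205 and 149 ± 1.31 in DMSO (SD, n = 4 each). Neither loading (-0.01 ± 0.04, adjusted p = 0.85) nor GSK205 (-0.09 ± 0.04, adjusted p = 0.15) passed against DMSO. Loading with GSK205 was higher than GSK205 alone by 0.14 ± 0.04 (adjusted p = 0.013), and this was lost without replicate 1 of loading with GSK205 (0.12, adjusted p = 0.06). At 3 h, loading libraries had 175, 172, 171 and 169.5 CPM, all above the highest DMSO library, but the difference did not pass (0.15 ± 0.05, adjusted p = 0.052) unless DMSO replicate 3 was left out (0.17, adjusted p = 0.049).

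The plasma membrane pump genes went separate ways under GSK101 at 9 h. ATP2B1 (ENSSSCG00000027898) lies on chromosome 5 from 92935688 to 93061406, overlapping another protein-coding gene, and ATP2B4 (ENSSSCG00000015273) on chromosome 9 from 64336354 to 64445669. At 9 h, ATP2B4 had 419, 439.5, 397 and 410.2 CPM in GSK101 libraries and 193, 188, 192 and 174 CPM in DMSO libraries, and rose by 1.13 ± 0.05 (adjusted p = 9.7e-19). ATP2B1 had 278, 304, 285 and 286 CPM in GSK101 libraries and 324, 321, 338 and 316 CPM in DMSO libraries at 9 h, and fell by 0.20 ± 0.05 (adjusted p = 0.00068). Both pairs of groups were apart. At 3 h both genes rose under GSK101. ATP2B1 then had 435, 399, 425 and 415 CPM in GSK101 libraries against 317, 303, 328 and 284 CPM in DMSO libraries (0.46 ± 0.05, adjusted p = 5.6e-08), and ATP2B4 had 283, 228, 237 and 215 CPM against 189.7, 184, 199 and 176 CPM (0.38 ± 0.08, adjusted p = 0.00032).

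IL-1 lowered both pump genes slightly at 9 h. ATP2B1 averaged 297 ± 6.45 CPM in IL-1 and 325 ± 9.31 in DMSO, a fall of 0.15 ± 0.05 (adjusted p = 0.0057). ATP2B4 averaged 169.8 ± 5.12 CPM in IL-1 and 187 ± 8.74 in DMSO (SD, n = 4 each), a fall of 0.17 ± 0.05 (adjusted p = 0.0058), with overlapping libraries. Against IL-1, GSK101 left ATP2B4 higher by 1.30 ± 0.05 (adjusted p = 2.1e-20), and ATP2B1 did not pass (-0.04 ± 0.05, adjusted p = 0.49). At 3 h IL-1 passed for neither gene (ATP2B1 -0.03 ± 0.05 (adjusted p = 0.69); ATP2B4 -0.09 ± 0.08, adjusted p = 0.42).

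Loading lowered both pump genes at 9 h. ATP2B1 had 263, 262, 261 and 269 CPM in loading libraries, below every DMSO library, and fell by 0.32 ± 0.05 (adjusted p = 1.2e-05). ATP2B4 had 149, 153, 159 and 151 CPM, again below every DMSO library, and fell by 0.31 ± 0.05 (adjusted p = 4.7e-05). GSK205 alone lowered ATP2B1, with 275, 286, 277 and 233 CPM and a fall of 0.29 ± 0.05 (adjusted p = 3.3e-05), and did not pass for ATP2B4 (181 ± 13.3 CPM; -0.06 ± 0.05, adjusted p = 0.44). With GSK205 during loading, ATP2B4 had 196, 185, 186 and 165 CPM, higher than under loading alone by 0.25 ± 0.05 (adjusted p = 0.0036) with no overlap. ATP2B1 had 271 ± 8.82 CPM in that group (SD, n = 4) and did not differ detectably from loading alone (0.03 ± 0.05, adjusted p = 0.81). In order of 9 h means, ATP2B4 ran GSK101, DMSO, loading with GSK205, GSK205, IL-1 and loading, where each of DMSO, loading with GSK205 and GSK205 overlapped the next, GSK101 lay above DMSO and loading lay below IL-1, and ATP2B1 ran DMSO, IL-1, GSK101, loading with GSK205, GSK205 and loading, where each group after DMSO overlapped the next.

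At 3 h, ATP2B1 averaged 294 ± 14.2 CPM in loading with GSK205, 306 ± 15.9 in loading, 319.7 ± 10.6 in GSK205 and 308 ± 19.1 in DMSO. ATP2B4 averaged 172 ± 17.4, 181 ± 24.5, 200.3 ± 13.3 and 187 ± 9.72 CPM in the same groups (SD, n = 4 each). None of these 3 h comparisons passed for either gene. ATP2B4 came nearest, lower in loading with GSK205 than in GSK205 at -0.22 ± 0.08 (adjusted p = 0.075), and passed without replicate 2 of loading with GSK205 (-0.28, adjusted p = 0.027).

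In the TRPV4 experiment, neither store sensor gene was called higher against DMSO at 9 h. STIM1 (ENSSSCG00000014792) lies on chromosome 9 from 6066612 to 6270090. At 9 h it had 22.9, 20.4, 20.3 and 23.8 CPM in IL-1 libraries, 25.8, 20.4, 28.6 and 24.9 CPM in GSK101 libraries and 23.3, 25.9, 24.4 and 24.2 CPM in loading libraries, against 30.4, 31.9, 29.7 and 28.4 CPM in DMSO libraries. STIM1 fell by 0.49 ± 0.08 under IL-1 (adjusted p = 4.8e-06), by 0.30 ± 0.08 under GSK101 (adjusted p = 0.0022) and by 0.32 ± 0.08 under loading (adjusted p = 0.0041). The IL-1 and loading libraries lay below every DMSO library, and those of GSK101 overlapped DMSO. GSK205 alone, at 30.9 ± 2.23 CPM (SD, n = 4), did not pass (0.02 ± 0.08, adjusted p = 0.91). Loading with GSK205, at 25.4 ± 2.49 CPM, was lower than GSK205 alone by 0.29 ± 0.08 (adjusted p = 0.012), a call lost without GSK205 replicate 2 (-0.24, adjusted p = 0.065) or replicate 2 (-0.25, adjusted p = 0.061) or 3 (-0.26, adjusted p = 0.05) of loading with GSK205. GSK101 and IL-1 did not pass against each other at 9 h (0.18 ± 0.08, adjusted p = 0.069), but did without GSK101 replicate 2 (0.27, adjusted p = 0.0051) or IL-1 replicate 4 (0.23, adjusted p = 0.039). The 9 h order was GSK205, DMSO, loading with GSK205, GSK101, loading and IL-1, and each group overlapped its neighbours.

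At 3 h, STIM1 had 39.2, 28.3, 31.7 and 31.0 CPM in GSK101 libraries and 26.99, 28.0, 28.8 and 30.4 CPM in DMSO libraries. The rise of 0.21 ± 0.08 (adjusted p = 0.033) rested on GSK101 replicate 1, without which it was 0.11 (adjusted p = 0.24), and it was also lost without DMSO replicate 1 (0.18, adjusted p = 0.086), 2 (0.20, adjusted p = 0.071) or 3 (0.21, adjusted p = 0.057). It was lost with no filter on low counts (0.19, adjusted p = 0.064), with protein-coding genes only (0.18, adjusted p = 0.062) and with only the groups compared (0.18, adjusted p = 0.15). Without GSK101 replicate 1 the difference from IL-1 (0.27 ± 0.08, adjusted p = 0.0048) was 0.17 (adjusted p = 0.051). GSK205 libraries had 34.4, 30.1, 32.4 and 34.5 CPM, and their rise of 0.21 ± 0.08 (adjusted p = 0.047) was lost without any of 6 libraries (GSK205 replicates 1, 3 and 4 and DMSO replicates 1, 2 and 3), at log2 changes of 0.19 to 0.21, and under all alternatives of method but only the groups compared. STIM1 averaged 27.04 ± 1.57 CPM in IL-1, 28.6 ± 1.33 in loading with GSK205 and 28.3 ± 2.15 in loading (SD, n = 4 each), with no call against DMSO.

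STIM2 (ENSSSCG00000008762), on chromosome 8 from 20456343 to 20609283, was called in 6 of the 20 comparisons of the TRPV4 experiment. At 3 h it had 11.13, 11.4, 13.2 and 9.96 CPM in GSK101 libraries, above every DMSO library (5.27, 7.88, 7.27 and 7.21 CPM), and rose by 0.74 ± 0.12 (adjusted p = 1.6e-05). At 9 h it had 8.44, 8.21, 7.43 and 8.59 CPM in IL-1 libraries and 10.1, 10.1, 9.24 and 10.2 CPM in DMSO libraries, and fell by 0.30 ± 0.12 (adjusted p = 0.027), a call lost without DMSO replicate 1, 2 or 4 (-0.29 each, adjusted p = 0.054, 0.055 and 0.053) or IL-1 replicate 3 (-0.26, adjusted p = 0.078), and lost under RLE normalization (-0.26, adjusted p = 0.057) and by DESeq2 (-0.26, adjusted p = 0.05). GSK101 at 9 h had 8.36 ± 1.62 CPM (SD, n = 4) and did not pass (-0.27 ± 0.12, adjusted p = 0.055). It passed without GSK101 replicate 3 (-0.41, adjusted p = 0.0049), with no filter on low counts (-0.29, adjusted p = 0.037), with protein-coding genes only (-0.30, adjusted p = 0.03) and with the replicate number as a block (-0.28, adjusted p = 0.039). IL-1 at 3 h had 8.53 ± 0.463 CPM and did not pass (0.31 ± 0.13, adjusted p = 0.061), but did without DMSO replicate 2 (0.38, adjusted p = 0.036) and with the replicate block (0.32, adjusted p = 0.039). At 9 h, loading (9.63 ± 1.33 CPM), loading with GSK205 (9.16 ± 1.55) and GSK205 (8.79 ± 0.766) did not pass, nor did they at 3 h (8.26 ± 1.20, 7.48 ± 0.854 and 8.05 ± 1.12 CPM in the same order).

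ORAI1 (ENSSSCG00000034510), the pore of store-operated entry, rose at 9 h under GSK101, IL-1, loading and GSK205. It lies on chromosome 14 from 31012212 to 31028008. GSK101 libraries had 56.4, 58.3, 57.6 and 56.9 CPM, IL-1 libraries 59.2, 57.4, 55.0 and 55.7 CPM and DMSO libraries 30.7, 29.1, 28.7 and 31.5 CPM. ORAI1 rose by 0.91 ± 0.06 (adjusted p = 7.4e-15) under GSK101 and by 0.90 ± 0.06 (adjusted p = 5.6e-15) under IL-1, and the agonist and the cytokine did not differ detectably (0.01 ± 0.06, adjusted p = 0.88). Loading libraries had 41.8, 41.8, 38.2 and 33.9 CPM, GSK205 libraries 39.1, 37.0, 36.9 and 41.3 CPM and libraries of loading with GSK205 41.6, 42.3, 40.1 and 37.9 CPM. ORAI1 rose by 0.36 ± 0.06 (adjusted p = 2.8e-05) under loading and by 0.35 ± 0.06 (adjusted p = 5.2e-05) under GSK205. All of these libraries were above every DMSO library, with GSK101 and IL-1 overlapping at the top and the other 3 overlapping each other.

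At 3 h, ORAI1 was higher under IL-1 than under GSK101. IL-1 libraries had 36.6, 37.0, 42.5 and 36.6 CPM and DMSO libraries 26.3, 30.5, 28.6 and 30.0 CPM, a rise of 0.42 ± 0.08 (adjusted p = 8.2e-05), whereas GSK101 (30.6 ± 2.46 CPM; SD, n = 4) did not pass (0.10 ± 0.08, adjusted p = 0.3) and was lower than IL-1 by 0.31 ± 0.08 (adjusted p = 0.0011). Loading libraries had 32.2, 32.6, 32.6 and 37.6 CPM at 3 h, and the call of 0.24 ± 0.08 (adjusted p = 0.049) was lost in most settings, among them without DMSO replicate 1, 3 or 4 or loading replicate 2, 3 or 4 (0.18 to 0.25). Loading with GSK205 had 37.8, 36.2, 29.2 and 35.5 CPM and GSK205 alone 28.2 ± 1.43 CPM, a difference of 0.30 ± 0.08 (adjusted p = 0.01), which was lost without replicate 1 of loading with GSK205 (0.25, adjusted p = 0.052).

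Library properties and marker genes moved with some of these groups. GSK101 libraries at 3 h held 62677053 to 80223797 counts, against 20651530 to 29904509 in DMSO at 3 h, with small RNAs at 1.83% to 3.02% of counts against 4.64% to 9.32% and mitochondrial RNA at 0.808% to 3.04% against 0.334% to 0.868%. Within the GSK101 libraries at 3 h, replicate 1 stood highest, at 3.04% mitochondrial and 3.67% ribosomal RNA. The others had at most 1.53% and 1.63%. Loading libraries at 3 h also lay apart from DMSO, at 31848889 to 66758428 counts and 3.42% to 4.50% small RNAs. At 9 h, IL-1 libraries held 36091153 to 63598533 counts, against 24190041 to 35352928 in DMSO. Mitochondrial RNA at 9 h was 0.351% to 0.376% in loading and 0.439% to 0.596% in DMSO libraries. The part of these differences in the results was not tested. In IL-1 libraries at 9 h, the 5 fibroblast markers in the table, all above 1 CPM, summed to 1074 to 1207 CPM, against 516 to 565 CPM in DMSO. The 6 leukocyte markers summed to 89.1 to 98.4 CPM in IL-1 libraries at 9 h, against 30.2 to 37.1 CPM in DMSO, and 4 of them averaged above 1 CPM in each. The leukocyte antigen genes PTPRC and CD3E stayed at or below 0.335 CPM and 0.321 CPM in every TRPV4 library, and CD14 made up most of the sum. At 3 h the leukocyte sum was 48.5 to 59.5 CPM in IL-1 and 30.0 to 37.2 CPM in DMSO libraries. Marker sums of the GSK101 libraries at 9 h also lay apart from DMSO. The 5 fibroblast markers summed to 606 to 627 CPM in GSK101 and 516 to 565 CPM in DMSO, the 5 endothelial ones to 10.2 to 10.8 and 6.22 to 8.81 CPM, the 4 skeletal muscle ones to 2.86 to 3.89 and 1.28 to 2.06 CPM, and the 12 chondrocyte ones to 82169 to 84859 and 94541 to 98807 CPM. At 3 h the chondrocyte sum was 133359 to 146708 CPM in GSK101 and 102960.0 to 123426 CPM in DMSO, and the leukocyte sum 25.0 to 28.8 and 30.0 to 37.2 CPM. GSK205 libraries at 9 h had a chondrocyte sum of 80531 to 91709 CPM, also below every DMSO library, and at 3 h a fibroblast sum of 743 to 787 CPM against 665 to 703 CPM. The part of these markers in the results was not tested.

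The difference of a treatment's effect at 9 h and at 3 h was tested for GSK101, IL-1 and loading. The responses to GSK101 and IL-1 differed between the 2 harvests for most of the genes, and that to loading for 2 of 9. The effect of GSK101 was larger at 9 h for ITPR3 by 1.76 ± 0.11 (adjusted p = 2.5e-19), ORAI1 by 0.85 ± 0.10 (adjusted p = 2.5e-10), ATP2B4 by 0.79 ± 0.10 (adjusted p = 3.1e-09) and ATP2A2 by 0.23 ± 0.06 (adjusted p = 0.0021). It was more negative at 9 h for STIM2 by 0.97 ± 0.18 (adjusted p = 9.4e-06), ATP2B1 by 0.61 ± 0.07 (adjusted p = 3e-10) and STIM1 by 0.47 ± 0.12 (adjusted p = 0.00078). These are 7 of 9 genes, 4 higher and 3 lower, beside 45.8% of all genes (23.1% higher and 22.8% lower). ITPR1 did not pass (-0.20 ± 0.14, adjusted p = 0.26). ITPR2 did not pass either (-0.26 ± 0.11, adjusted p = 0.052), but did without GSK101 3 h replicate 2 or 4, DMSO 3 h replicate 1 or 3 or DMSO 9 h replicate 4 (-0.28 to -0.34), and with protein-coding genes only (-0.26, adjusted p = 0.049) or the replicate block (-0.25, adjusted p = 0.032).

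The effect of IL-1 was larger at 9 h for ATP2A2 by 1.33 ± 0.06 (adjusted p = 4.3e-24), ITPR2 by 0.99 ± 0.11 (adjusted p = 1.6e-10), ITPR3 by 0.63 ± 0.11 (adjusted p = 3.8e-06) and ORAI1 by 0.52 ± 0.10 (adjusted p = 2e-05), and more negative for STIM2 by 0.58 ± 0.18 (adjusted p = 0.0078) and STIM1 by 0.38 ± 0.12 (adjusted p = 0.0069). That is 6 of 9, 4 higher and 2 lower, beside 38.8% (18.5% higher and 20.4% lower). For loading, ITPR1 (-0.53 ± 0.14, adjusted p = 0.011) and ATP2B1 (-0.29 ± 0.07, adjusted p = 0.0055) had a more negative effect at 9 h, 2 of 9 beside 10.1% (4.99% higher and 5.1% lower). Without loading 3 h replicate 4, ITPR2 (-0.36, adjusted p = 0.023) and ATP2B4 (-0.30, adjusted p = 0.039) joined them. In DMSO itself, 9 h libraries were higher than 3 h libraries in ITPR1 by 0.44 ± 0.10 (adjusted p = 0.00092) and STIM2 by 0.52 ± 0.13 (adjusted p = 0.002), and lower in ITPR2 by 0.29 ± 0.08 (adjusted p = 0.0053), 3 of 9 beside 22.2% (10.4% higher and 11.8% lower). The DMSO values given above for these 3 genes therefore differ between harvests.

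GSK101 and IL-1 were set directly against each other. At 9 h, 4 of 9 genes differed, 2 higher and 2 lower in GSK101, beside 53.8% of all genes (27.5% higher and 26.4% lower). ITPR3 and ATP2B4 were higher in GSK101, and ITPR2 and ATP2A2 higher in IL-1, each by the values above. At 3 h all 9 differed, 8 higher in GSK101 and ORAI1 lower, beside 41.5% (20.1% higher and 21.3% lower). Without GSK101 replicate 1, the calls of ITPR1 (adjusted p = 0.057), ITPR2 (adjusted p = 0.18) and STIM1 (adjusted p = 0.051) were lost. Those of ITPR1 and ITPR2 were also lost without single IL-1 libraries, as given above. The 3 h differences in GSK101 were 0.50 ± 0.05 for ATP2B1, 0.47 ± 0.08 for ATP2B4, 0.43 ± 0.12 for STIM2, 0.38 ± 0.05 for ATP2A2 and 0.26 ± 0.07 for ITPR3 (adjusted p = 9.8e-09 to 0.0043).

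Whether GSK205 changed the response to loading was tested as an interaction, the loading effect in GSK205 minus the loading effect without it. At 9 h, 5 of the 9 genes passed, 4 higher and 1 lower, beside 4.64% of all genes (2.22% higher and 2.41% lower), and loading alone had been called for each of the 5. The interaction was 0.68 ± 0.13 (adjusted p = 0.0015) for ITPR1, 0.48 ± 0.08 (adjusted p = 0.00035) for ITPR2, 0.32 ± 0.07 (adjusted p = 0.0039) for ATP2B1, 0.31 ± 0.07 (adjusted p = 0.0099) for ATP2B4 and -0.30 ± 0.08 (adjusted p = 0.027) for ORAI1. For 4 of these genes, GSK205 alone had moved the level in the same direction as loading. The same DMSO libraries enter the loading change, the GSK205 change and the interaction. The same loading libraries enter the loading change and the interaction. These results are therefore not independent, and their agreement is partly built in. With the antagonist present, the loading difference was 0.08 ± 0.06 for ITPR2, 0.01 ± 0.05 for ATP2B1, 0.01 ± 0.05 for ATP2B4 and 0.06 ± 0.06 for ORAI1, none of which passed. STIM1, which loading lowered with GSK205 as well as without it, had an interaction of 0.03 ± 0.12 (adjusted p = 0.94).

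For ATP2B4, the change under GSK205 alone did not pass while loading alone lowered it. The ORAI1 interaction was lost without GSK205 replicate 4 (-0.27, adjusted p = 0.068), DMSO replicate 2 (-0.29, adjusted p = 0.067) or 3 (-0.28, adjusted p = 0.066), loading replicate 1 (-0.27, adjusted p = 0.079) or 2 (-0.27, adjusted p = 0.075), or replicate 3 (-0.30, adjusted p = 0.055) or 4 (-0.27, adjusted p = 0.068) of loading with GSK205. Against loading alone, loading with GSK205 called 1 gene at 9 h, ATP2B4, beside 4.1% of all genes, and against GSK205 alone 3 genes, 2 higher (ITPR1 and ATP2A2) and 1 lower (STIM1), beside 18% (8.82% higher and 9.2% lower). For the interaction at 3 h 0 of 9 passed, with 1 at an unadjusted p under 0.05 and 0 by DESeq2, beside 2.25% of all genes. The 3 h comparison of loading with GSK205 called ITPR3 alone against loading, beside 15.3%, and ORAI1 alone against GSK205, beside 11.9%.

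**Figure D3:**
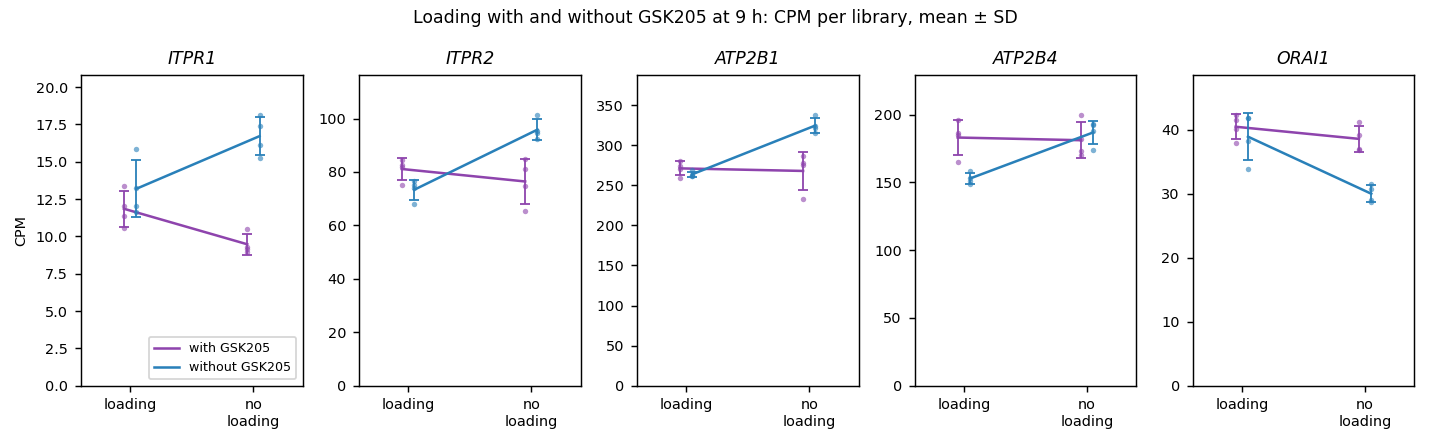
CPM at 9 h of the 5 genes with a called interaction, for loading (left) and no loading (right), with GSK205 (purple) and without it (blue). Dots are libraries and bars the mean ± SD of 4. Without GSK205 the loaded libraries of ITPR2, ATP2B1 and ATP2B4 lie below the unloaded ones and those of ORAI1 above, whereas with GSK205 the 2 ends of each line for these 4 genes overlap.

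The wider pathway was followed in 78 genes in 5 lists, chosen by role. Of these, RYR1, IRAG1, ITPKB, BSG, PLN and STRIT1 had no row in the table under those symbols. List counts are of called genes and are set beside the same all-gene shares as the members above. Of the genes that make or use IP3 or release stored calcium, 7 rose and 5 fell of 17 tested under GSK101 at 9 h (median 0.18), and 5 rose and 8 fell of 17 under IL-1 at 9 h (median -0.28). At 3 h, 3 rose and 2 fell of 16 under GSK101 and 1 rose and 6 fell of 16 under IL-1. ITPKC, a kinase that uses up IP3, rose by 2.61 ± 0.08 (adjusted p = 1.9e-23) under IL-1 at 9 h, with 63.8 ± 2.60 CPM in IL-1 and 10.3 ± 1.26 in DMSO, and by 2.79 ± 0.11 (adjusted p = 5.9e-20) at 3 h. ITPRIP, which encodes a protein that binds IP3 receptors, rose by 2.38 ± 0.11 (adjusted p = 6e-19) under GSK101 at 9 h, with 22.3 ± 1.02 CPM in GSK101 and 4.18 ± 0.565 in DMSO. PLCG1, a phospholipase C, fell by 2.31 ± 0.06 under IL-1 at 9 h (adjusted p = 2.5e-26), with 18.0 ± 0.564 CPM in IL-1 and 87.9 ± 4.67 in DMSO (SD, n = 4 each).

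Of the other calcium pumps and exchangers, 6 rose and 0 fell of 11 tested under GSK101 at 9 h (median 0.22) and 4 rose and 1 fell of 11 under IL-1 (median -0.11). SLC8B1, the mitochondrial sodium and calcium exchanger, was higher in GSK101 than in IL-1 at 9 h by 1.86 ± 0.08 (adjusted p = 1.2e-19), with 65.4 ± 2.10 CPM in GSK101, 18.0 ± 0.162 in IL-1 and 25.9 ± 1.03 in DMSO. Of the store-operated entry genes beside STIM and ORAI1, 5 rose and 5 fell of 13 under GSK101 at 9 h (median 0.02) and 4 rose and 5 fell of 13 under IL-1 (median -0.16). TRPC6, a calcium-permeable cation channel, rose by 7.36 ± 0.37 (adjusted p = 9.2e-18) under IL-1 at 9 h, with 13.5 ± 1.04 CPM in IL-1 and 0.0754 ± 0.0599 in DMSO, where 1 library was at 0. HOMER1, a scaffold protein that binds IP3 receptors, rose by 2.02 ± 0.14 (adjusted p = 4.6e-13) under GSK101 at 3 h, with 14.7 ± 0.779 CPM in GSK101 and 3.66 ± 0.370 in DMSO, and by 1.86 ± 0.12 (adjusted p = 1.1e-14) at 9 h.

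Of the reticulum genes, which encode calcium binders, leak channels and SERCA regulators, 12 rose and 0 fell of 17 under GSK101 at 9 h (median 0.31) and 13 rose and 1 fell of 17 under IL-1 (median 0.42). At 3 h, 8 rose and 0 fell of 17 under GSK101 and 10 rose and 1 fell of 17 under IL-1. Of the mitochondrial uptake genes, 8 rose and 1 fell of 10 under GSK101 at 9 h (median 0.25) and 7 rose and 1 fell of 10 under IL-1 (median 0.40). The effect of GSK101 on MCUB, a subunit that restrains the mitochondrial uniporter, was larger at 9 h than at 3 h by 1.86 ± 0.11 (adjusted p = 2.4e-20), and MCUB had 78.6 ± 1.30 CPM in GSK101 and 21.6 ± 1.94 in DMSO at 9 h (SD, n = 4 each).

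Under loading at 9 h, 9 rose and 0 fell of 17 reticulum genes, 1 rose and 3 fell of 17 in the IP3 list and 2 rose and 0 fell of 11 in the pump list, at medians of 0.15, -0.01 and 0.10. The ryanodine receptor gene RYR2, another kind of store release channel, fell by 0.59 ± 0.08 under loading (adjusted p = 1.2e-06) and by 0.55 ± 0.08 under GSK205 (adjusted p = 3.2e-06) at 9 h, with 29.0 ± 0.622 CPM in loading, 29.7 ± 2.37 in GSK205 and 43.1 ± 5.22 in DMSO. Its interaction was 0.49 ± 0.11 (adjusted p = 0.0069), the same sign as those of ITPR1 and ITPR2. At 3 h, ITPRIP was higher under loading by 0.67 ± 0.14 (adjusted p = 0.0017) and lower under GSK205 by 0.83 ± 0.15 (adjusted p = 0.00012), and loading with GSK205 lay below loading by 1.11 ± 0.14 (adjusted p = 1.8e-06). HOMER1 rose under loading at 3 h by 0.83 ± 0.14 (adjusted p = 0.00018) and lay 0.88 ± 0.14 lower in loading with GSK205 than in loading (adjusted p = 5.4e-05).

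In the PIEZO1 experiment the same genes, like genes in general, were called less often. The share of all genes called in a comparison ran from 0% to 19.7% there and from 2.25% to 65.1% in the TRPV4 experiment. Over 28 comparisons, ATP2B1 was called in 7, ATP2B4 in 4, ITPR2, ITPR3 and STIM1 in 2 each, ORAI1 in 1, and ITPR1, ATP2A2 and STIM2 in none, whereas over the 20 comparisons of the TRPV4 experiment each gene had been called in 6 to 11. Group means ran from 3.90 to 5.55 CPM for ITPR1, 25.1 to 38.7 for ITPR2, 9.59 to 22.7 for ITPR3, 66.3 to 91.8 for ATP2A2, 152 to 258 for ATP2B1, 180.3 to 275 for ATP2B4, 6.46 to 12.3 for STIM1, 0.979 to 1.94 for STIM2 and 16.2 to 22.1 for ORAI1. STIM2 counts were as low as 34 in a library, so changes in STIM2 were hard to detect there. Among NT vehicle libraries at 3 h, replicate 4 was the highest in all 9 genes, and results that rest on it are given with and without it.

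**Figure D4:**
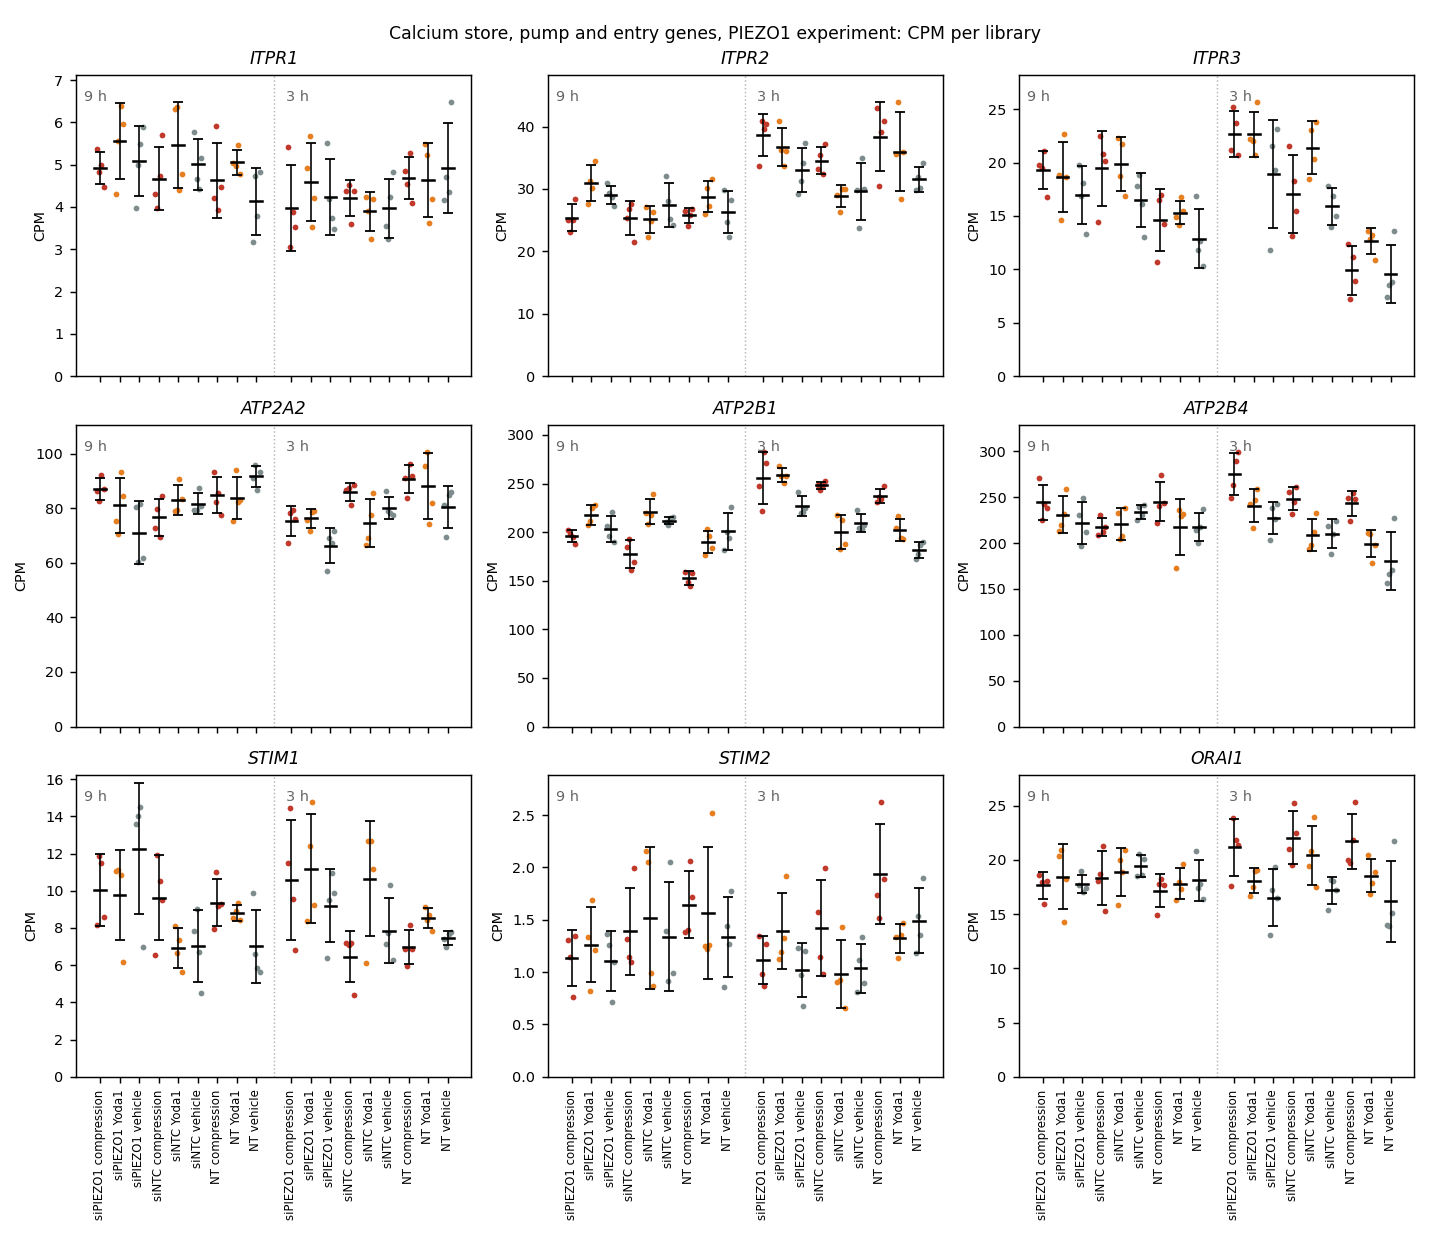
CPM of the 9 genes in every library of the PIEZO1 experiment, for siPIEZO1, siNTC and NT cells with compression, Yoda1 or vehicle, with 9 h left and 3 h right in each panel. Dots are libraries, and the line and bar are the mean ± SD of 4. ATP2B1 lies lower in compressed than in vehicle libraries at 9 h and higher at 3 h in NT and siNTC cells.

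ATP2B1, the plasma membrane pump gene, changed direction with time after compression. At 9 h in NT cells it had 159, 149, 144 and 158 CPM in compressed libraries and 182, 201, 194 and 226 CPM in vehicle libraries, and fell by 0.41 ± 0.07 (adjusted p = 0.00041). In siNTC cells at 9 h it had 185, 193, 161 and 169 CPM in compressed and 210.3, 208, 214 and 216 CPM in vehicle libraries, and fell by 0.26 ± 0.07 (adjusted p = 0.016). The groups did not overlap in either state. The siNTC call was lost without vehicle replicate 3 (-0.25, adjusted p = 0.051) or 4 (-0.25, adjusted p = 0.058) or compression replicate 3 (-0.22, adjusted p = 0.092) or 4 (-0.23, adjusted p = 0.051). In siPIEZO1 cells the compressed libraries had 203, 198, 195 and 188 CPM and the vehicle libraries 206, 196, 220.4 and 189 CPM, which overlapped and did not pass (-0.05 ± 0.07, adjusted p = 0.87). The difference between siPIEZO1 and siNTC in the compression effect did not pass either (0.21 ± 0.09, adjusted p = 0.31), so the effects are not shown to differ.

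At 3 h in NT cells, ATP2B1 had 231, 236, 234 and 247 CPM in compressed libraries and 172, 177, 187 and 189 CPM in vehicle libraries, and rose by 0.38 ± 0.07 (adjusted p = 0.00054). It did not pass in siNTC cells (248 ± 3.61 CPM compressed and 209.6 ± 9.23 in vehicle; 0.24 ± 0.07, adjusted p = 0.1) or in siPIEZO1 (255 ± 27.05 and 227 ± 10.1 CPM; 0.16 ± 0.07, adjusted p = 0.31). Over the mean of the 3 transfection states, ATP2B1 fell by 0.24 ± 0.04 at 9 h (adjusted p = 4.6e-05) and rose by 0.26 ± 0.04 (adjusted p = 2.4e-05) at 3 h. In NT cells the compression effect at 9 h was lower than at 3 h by 0.78 ± 0.09 (adjusted p = 8.6e-09).

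ATP2B4 rose with compression at 3 h. In NT cells it had 249, 224, 255 and 248 CPM in compressed libraries and 157, 167, 170.4 and 227 CPM in vehicle libraries, which overlapped through vehicle replicate 4, and it rose by 0.42 ± 0.09 (adjusted p = 0.0032). In siNTC cells it had 248 ± 12.6 CPM compressed and 210.1 ± 15.8 in vehicle, and in siPIEZO1 cells 275 ± 23.0 and 228 ± 17.7 CPM (SD, n = 4 each), neither of which passed alone. Over the 3 states it rose by 0.31 ± 0.05 (adjusted p = 0.00011). At 9 h it did not pass over the 3 states (0.07 ± 0.05, adjusted p = 0.44), and the change of its effect with time in NT cells (-0.26 ± 0.13, adjusted p = 0.22) passed without NT vehicle 3 h replicate 4 (-0.42, adjusted p = 0.018).

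ORAI1 and ITPR2 also rose with compression at 3 h, over the 3 states. ORAI1 had 17.6, 23.9, 21.8 and 21.4 CPM in compressed and 13.0, 17.2, 19.4 and 16.5 CPM in vehicle siPIEZO1 libraries. In siNTC cells it had 21.0, 19.5, 25.3 and 22.5 CPM compressed and 15.4, 18.1, 18.0 and 17.2 CPM in vehicle, and in NT cells 20.0, 19.7, 21.8 and 25.3 CPM compressed and 14.0, 13.9, 15.1 and 21.7 CPM in vehicle. The mean was higher after compression in each of the 3 states, and ORAI1 rose by 0.37 ± 0.08 (adjusted p = 0.0012) over them. In NT cells alone it did not pass (0.41 ± 0.14, adjusted p = 0.062), but did by DESeq2 (0.41, adjusted p = 0.025), with the replicate block (0.42, adjusted p = 0.04), with protein-coding genes only (0.41, adjusted p = 0.05) and without NT vehicle replicate 4 (0.59, adjusted p = 0.0032). ITPR2 averaged 38.7 ± 3.33 against 33.1 ± 3.54 CPM in siPIEZO1, 34.6 ± 2.18 against 29.6 ± 4.60 in siNTC and 38.4 ± 5.48 against 31.5 ± 1.95 in NT, compressed against vehicle (SD, n = 4 each). It rose by 0.24 ± 0.07 (adjusted p = 0.018) over the 3 states, and the call was lost without siNTC vehicle replicate 2 (0.20, adjusted p = 0.053).

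In counts, compression over the mean of the 3 states called 4 of 9 genes at 3 h, all higher, beside 13.1% of all genes (6.71% higher and 6.34% lower), and 1 of 9 at 9 h, beside 13.6%. In NT cells it called 2 at 3 h, both higher, beside 6.27% (4.18% higher and 2.09% lower), and 1 at 9 h, beside 3.51%. In siNTC cells at 3 h 0 of 9 passed, with 3 at an unadjusted p under 0.05 and 1 by DESeq2, beside 0.911%, and at 9 h 1 gene passed, beside 6.43%. In siPIEZO1 cells at 3 h 0 of 9 passed, with 3 at an unadjusted p under 0.05 and 0 by DESeq2, beside 0.6%. In siPIEZO1 cells at 9 h 0 of 9 passed, with 1 at an unadjusted p under 0.05 and 0 by DESeq2, beside 2.18%. The gene nearest to a call there was ATP2A2, at 0.30 ± 0.09 (adjusted p = 0.084), which passed without siPIEZO1 vehicle replicate 1 (0.36, adjusted p = 0.037) or 3 (0.37, adjusted p = 0.027). The time difference of the compression effect in NT called ATP2B1 alone, beside 9.21%, and ORAI1 missed the threshold (-0.50 ± 0.18, adjusted p = 0.059) with all libraries. It passed when NT vehicle 3 h replicate 4 (-0.70, adjusted p = 0.004) or NT compression 3 h replicate 1 (-0.56, adjusted p = 0.048) or 2 (-0.56, adjusted p = 0.045) was left out, by DESeq2 (-0.51, adjusted p = 0.026), with the replicate block (-0.51, adjusted p = 0.047) and with protein-coding genes only (-0.49, adjusted p = 0.049).

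Markers moved with compression at 9 h. The 6 leukocyte markers, 3 of which averaged above 1 CPM, summed to 15.2 to 55.4 CPM in compressed and 12.1 to 15.0 CPM in vehicle NT libraries, and to 35.5 to 56.2 and 11.9 to 29.5 CPM in siNTC and 53.2 to 60.9 and 21.2 to 59.1 CPM in siPIEZO1, where the groups overlapped, and 1 of the 6 was at 0 in all NT vehicle libraries. The 5 fibroblast markers summed to 2032 to 2873 CPM in compressed and 1887 to 2102 CPM in vehicle NT libraries, 999 to 1259 and 1097 to 1599 CPM in siNTC, and 447 to 563 and 493 to 601 CPM in siPIEZO1, with overlap in all 3 states. The chondrocyte sum was 38502 to 43969 CPM in compressed and 28652 to 38469 CPM in vehicle NT libraries. At 3 h compression lay apart from vehicle in siNTC, with fibroblast sums of 653 to 710.1 and 724 to 794 CPM and chondrocyte sums of 20609.7 to 25352 and 27540.3 to 28415 CPM. PTPRC and CD3E stayed at or below 0.562 and 0.415 CPM in every library of this experiment, and the part of these markers in the compression results was not tested.

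**Figure D5:**
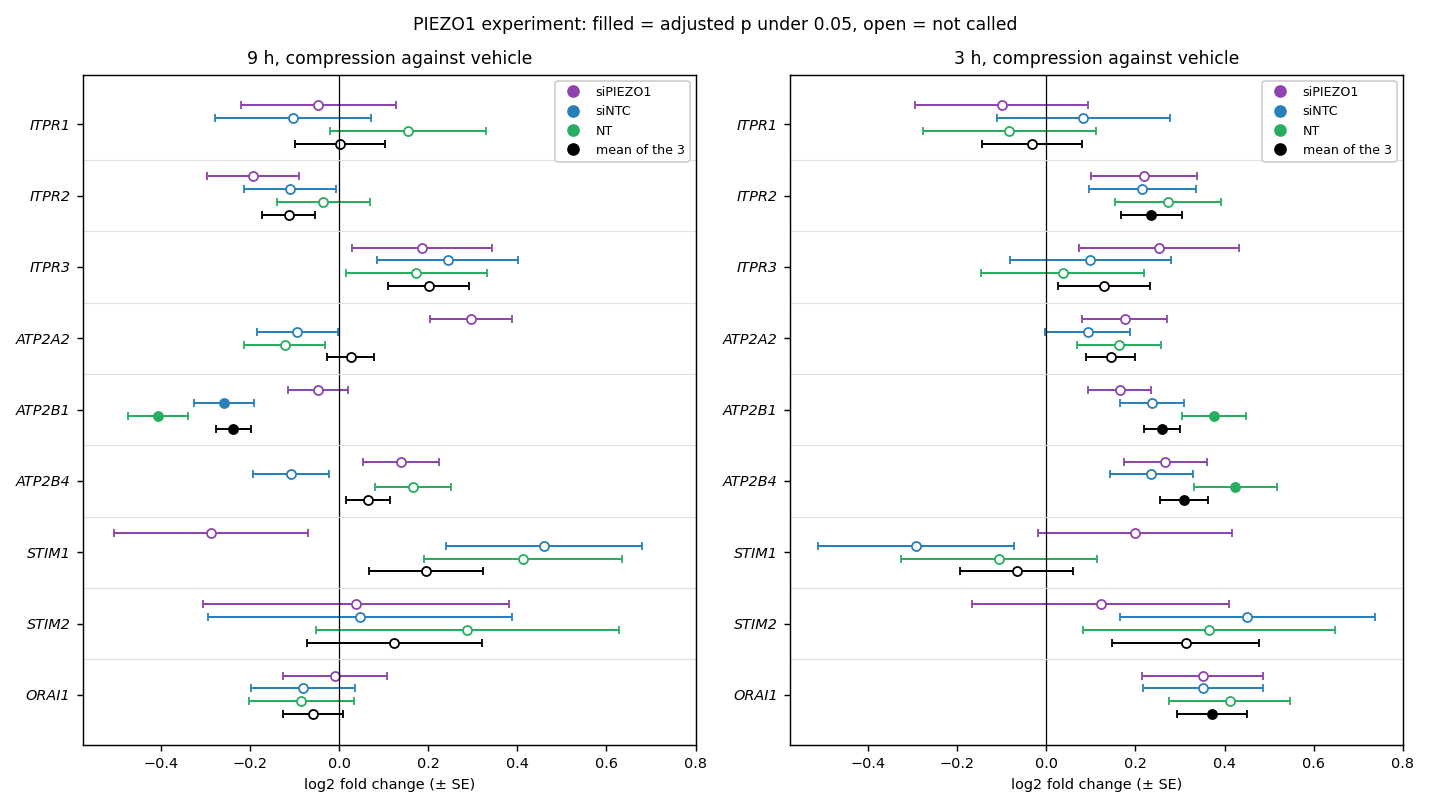
Log2 fold change ± SE of compression against vehicle in siPIEZO1, siNTC and NT cells and over the mean of the 3, at 9 h (left) and 3 h (right). Filled points passed the test and open points did not. ATP2B1 lies left of 0 at 9 h and right of 0 at 3 h, and ATP2B4, ORAI1 and ITPR2 lie right of 0 at 3 h.

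Yoda1, which opens PIEZO1, was called for a single gene. ITPR3 at 3 h averaged 22.6 ± 2.13 CPM with Yoda1 and 19.0 ± 5.05 in vehicle in siPIEZO1 cells, 21.4 ± 2.48 and 15.9 ± 1.74 in siNTC cells, and 12.6 ± 1.22 and 9.59 ± 2.73 in NT cells (SD, n = 4 each). Over the mean of the 3 states ITPR3 rose by 0.36 ± 0.10 (adjusted p = 0.024), 1 of 9 genes beside 11.2% of all genes, and the call was lost without NT vehicle replicate 1 (0.33, adjusted p = 0.055). In Yoda1 and vehicle libraries at 3 h, the fibroblast markers summed to 1548 to 2062 and 1297 to 1409 CPM in NT cells, with no overlap, and the leukocyte markers to 30.0 to 55.6 and 14.1 to 35.0 CPM in siNTC cells, and their part was not tested. STIM1 passed there without siNTC Yoda1 replicate 1 (0.37, adjusted p = 0.036) and ORAI1 without NT vehicle replicate 4 (0.25, adjusted p = 0.021), against 0.30 ± 0.13 (adjusted p = 0.11) and 0.19 ± 0.08 (adjusted p = 0.11) with all libraries.

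Within a state, no gene passed under Yoda1. At 3 h, 0 of 9 passed, with 2 at an unadjusted p under 0.05 and 0 by DESeq2 in siPIEZO1, beside 0.262% of all genes. In siNTC 0 of 9 passed, with 1 at an unadjusted p under 0.05 and 0 by DESeq2, beside 5.4%, and in NT 0 of 9 passed, with 2 at an unadjusted p under 0.05 and 0 by DESeq2, beside 0.409%. At 9 h 0 of 9 passed, with 1 at an unadjusted p under 0.05 and 0 by DESeq2 in siPIEZO1, beside 2.54%. In siNTC at 9 h 0 of 9 passed, with 0 at an unadjusted p under 0.05 and 0 by DESeq2, and in NT 0 of 9 passed, with 0 at an unadjusted p under 0.05 and 0 by DESeq2, each beside 0% of all genes by edgeR, where 982 and 1580 genes had an unadjusted p under 0.05 and DESeq2 called 2 and 16. Over the 3 states at 9 h 0 of 9 passed, with 1 at an unadjusted p under 0.05 and 0 by DESeq2, beside 0.21%. With the spread between these libraries, the SE of STIM1 in a single state was 0.22, so small changes of STIM1 were not detectable. ATP2B1 had a smaller SE in the single-state comparisons of compression given above.

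The siRNA states were compared as well. In siPIEZO1 cells over the 3 stimuli at 3 h, ITPR2 was higher than in siNTC by 0.24 ± 0.07 (adjusted p = 0.015), ATP2B1 by 0.19 ± 0.04 (adjusted p = 0.0011) and ATP2B4 by 0.17 ± 0.05 (adjusted p = 0.027), 3 of 9 genes beside 15.1% of all genes (8.71% higher and 6.36% lower). The ITPR2 call was lost without siNTC vehicle replicate 2 (0.19, adjusted p = 0.054) or siPIEZO1 vehicle replicate 4 (0.20, adjusted p = 0.052). The ATP2B4 call was lost without siNTC vehicle replicate 2, siNTC compression replicate 2 or 3, siNTC Yoda1 replicate 1 or 2, or replicate 3 or 4 of siPIEZO1 vehicle, compression or Yoda1, at log2 changes of 0.14 to 0.16. STIM1 (0.35 ± 0.13, adjusted p = 0.054), ITPR3 (0.26 ± 0.10, adjusted p = 0.085) and ATP2A2 (-0.13 ± 0.05, adjusted p = 0.11) did not pass. STIM1 passed without siNTC vehicle replicate 3, siNTC Yoda1 replicate 2 or 3, siPIEZO1 vehicle replicate 1, siPIEZO1 compression replicate 4 or siPIEZO1 Yoda1 replicate 1 or 4, at 0.37 to 0.41. ITPR3 passed without siNTC compression replicate 1 (0.31) or siPIEZO1 vehicle replicate 1 (0.32), and ATP2A2 without siNTC Yoda1 replicate 2 (-0.16). In vehicle at 3 h 0 of 9 passed, with 1 at an unadjusted p under 0.05 and 0 by DESeq2, beside 5.07%.

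At 9 h the gene that differed was STIM1, the store sensor. In vehicle it had 13.6, 14.0, 14.5 and 7.003 CPM in siPIEZO1 libraries and 7.85, 9.04, 6.70 and 4.48 CPM in siNTC libraries, where siPIEZO1 replicate 4 lay within the siNTC range. STIM1 was higher by 0.82 ± 0.22 (adjusted p = 0.013), 1 of 9 beside 10.8% of all genes, and the call was lost without siNTC vehicle replicate 4, the lowest library (0.65, adjusted p = 0.087). Over the 3 stimuli it was higher by 0.46 ± 0.13 (adjusted p = 0.0071), 1 of 9 beside 19.7%. Fibroblast markers moved with the siRNA state, at 493 to 601 CPM in siPIEZO1 and 1097 to 1599 CPM in siNTC vehicle libraries at 9 h, and 219 to 407 and 724 to 794 CPM at 3 h, with all 5 above 1 CPM and none at 0. Chondrocyte sums in the same groups also lay apart, at 19159 to 23989 and 24955 to 37663 CPM at 9 h. At 3 h they were 15340 to 21654 and 27540.3 to 28415 CPM. The part of both marker sets in the siRNA results was not tested.

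The non-targeting siRNA itself was set against NT cells in vehicle. ITPR3 had 17.8, 13.9, 16.9 and 15.0 CPM in siNTC and 7.41, 8.50, 8.86 and 13.6 CPM in NT libraries at 3 h, with no overlap, and was higher in siNTC by 0.73 ± 0.18 (adjusted p = 0.0076), 1 of 9 beside 7.53%. Fibroblast markers summed to 724 to 794 CPM in these siNTC and 1297 to 1409 CPM in these NT libraries, and chondrocyte markers to 27540.3 to 28415 and 33112 to 36900.5 CPM, neither with overlap, and their part was not tested. ATP2B4 did not pass (0.22 ± 0.09, adjusted p = 0.16) unless NT vehicle replicate 4 was left out (0.35, adjusted p = 0.0069). At 9 h 0 of 9 passed, with 1 at an unadjusted p under 0.05 and 0 by DESeq2, beside 5.3%. No interaction between siPIEZO1 and a stimulus passed for any of the 9 genes. For compression at 9 h 0 of 9 passed, with 4 at an unadjusted p under 0.05 and 0 by DESeq2, beside 1.09% of all genes, and at 3 h 0 of 9 passed, with 0 at an unadjusted p under 0.05 and 0 by DESeq2, beside 0% of all genes by edgeR, where 854 had an unadjusted p under 0.05 and DESeq2 called 1. For Yoda1 at 9 h 0 of 9 passed, with 0 at an unadjusted p under 0.05 and 0 by DESeq2, beside 0.0269%, and at 3 h 0 of 9 passed, with 2 at an unadjusted p under 0.05 and 0 by DESeq2, beside 0.938%. In NT vehicle cells ATP2B4 was higher at 9 h (214, 200.1, 217 and 238 CPM) than at 3 h by 0.27 ± 0.09 (adjusted p = 0.029), 1 of 9 beside 16.1%, and this was lost without NT vehicle 9 h replicate 4 (0.23, adjusted p = 0.12) or 3 h replicate 1 (0.22, adjusted p = 0.14), 2 (0.24, adjusted p = 0.099) or 3 (0.25, adjusted p = 0.078). In the same comparison ITPR3 passed without 3 h replicate 4 (0.65, adjusted p = 0.0072) and ATP2B1 without 9 h replicate 1 (0.20, adjusted p = 0.04).

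Other pathway genes were called in both directions in the PIEZO1 experiment. Under compression over the 3 states at 9 h, 4 rose and 2 fell of 17 in the IP3 list (median 0.18), 0 rose and 3 fell of 8 in the pump list (median -0.10), 3 rose and 0 fell of 14 in the entry list (median -0.02), 3 rose and 6 fell of 17 in the reticulum list (median -0.06) and 1 rose and 2 fell of 10 in the mitochondrial list (median -0.07), against an all-gene median of 0.02. At 3 h, 2 rose and 0 fell of 16, 2 rose and 0 fell of 8, 1 rose and 1 fell of 14, 2 rose and 0 fell of 17 and 1 rose and 0 fell of 10 in the same lists. ITPRIP rose with compression at 3 h by 0.90 ± 0.11 (adjusted p = 4.1e-07) over the 3 states, with 20.1 ± 4.53 CPM compressed and 8.40 ± 0.853 in vehicle in NT cells, and with Yoda1 by 0.51 ± 0.11 (adjusted p = 0.0039). SLC8B1 rose with compression at 3 h by 0.31 ± 0.06 (adjusted p = 0.0011). RCN2, a calcium-binding protein of the reticulum, rose with compression at 9 h in siPIEZO1 cells by 1.25 ± 0.18 (adjusted p = 2.7e-05), with 129.9 ± 12.3 CPM compressed and 54.9 ± 19.1 in vehicle (SD, n = 4 each).

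The genes whose pattern was most like that of a member were found by the Pearson correlation of log2 CPM group means, as a description over groups that share libraries, controls and time. Over the 12 groups of the TRPV4 experiment and 16077 genes, ORAI1 was most like MARK3 (0.977), PHC2 (0.973) and TCP1 (0.972), ITPR3 most like NAV2 (0.983), EIF4E (0.982) and P2RY2 (0.981), and ITPR1 most like VPS13A (0.949), RBMX (0.948) and ANKRD42 (0.946). Over the 18 groups of the PIEZO1 experiment and 17747 genes, ATP2B1 was most like PLEKHB2 (0.915), SLK (0.902) and RHOT1 (0.899), ITPR2 most like CDYL2 (0.945), MAP4K4 (0.942) and TSPAN14 (0.933), and ATP2B4 most like MPDZ (0.852), MET (0.852) and PIK3R1 (0.837). Among the members themselves over the 12 groups, ITPR3 and ATP2B4 correlated at 0.849, ITPR1 and ITPR3 at 0.788, ITPR1 and ATP2A2 at 0.767, and STIM1 and ORAI1 at -0.829.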

How the data were processed

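RNA was sequenced as paired-end reads from 120 libraries in 30 groups. Ribosomal RNA was removed for the TRPV4 libraries and a low-input kit was used for the PIEZO1 libraries, per the labels' protocols. The authors deposited whole-number read counts per gene, not normalized, and the submitters' processing notes name Trim Galore, STAR and HTSeq with the build Sscrofa11.1. Neither tool versions nor a strand option could be taken from these sources, so whether reads of overlapping genes were told apart is not known. The count table had 32388 lines. Removing 481 repeated lines left 31907 identifiers, and no value column belonged to a sample outside the series.

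The counts were tested with edgeR 4.0.16 (R 4.3.3): TMM normalization, filterByExpr with a minimum count of 10, and the quasi-likelihood test in 1 model per experiment and time over all its groups, or over both times for comparisons between times. For the TRPV4 experiment 16540 genes were left at 9 h and 16562 at 3 h, for the PIEZO1 experiment 18611 and 18330, and 17447 and 20202 in their models over both times. Benjamini-Hochberg adjustment ran over all genes of a model, and a gene was called at an adjusted p under 0.05. SE is the absolute log2 fold change divided by the square root of F. CPM was scaled over a whole experiment. There were 48 comparisons, 20 and 28 in the experiments. The deposited libraries held 20651530 to 80223797 counts. Replicate pairs of a group differed by more than counting noise (lowest chi-square per degree of freedom 5.12 over 72 pairs and 11.6 over 108), and all libraries were kept; this does not show that they are independent. The method was tested on simulated data.

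The members and lists were chosen with earlier results of these data known. The text names all 9 members in every group, and from the pathway lists only genes among the 4 called ones with the largest absolute change in a comparison. The 3 members with most calls per experiment got their 3 most alike genes. Gene places come from RefSeq, build Sscrofa11.1. Alternatives were RLE normalization, no filter on low counts, protein-coding genes only, the replicate number as a block, only the groups compared, DESeq2 1.42.0, and each library left out.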

Additional observations from a re-analysis of the deposited data

Results flagged for a closer look

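Some groups held a library that stood apart from the other 3 of its group by Dixon's criterion at 95%, which chance meets in about 1 in 20 groups. It met 13 of 270 sets of 4 libraries, where chance alone would meet 13.5. In the TRPV4 experiment at 9 h, these were ITPR1 in GSK101 replicate 2, at 27.04 CPM against 22.6 to 23.2 in the others, and STIM2 in DMSO replicate 3, at 9.24 CPM against 10.1 to 10.2. At 3 h they were ITPR2 in replicate 2 of loading with GSK205, at 131 CPM against 110.2 to 111, STIM1 in IL-1 replicate 1, at 24.7 CPM against 27.7 to 28.0, ORAI1 in IL-1 replicate 3, at 42.5 CPM against 36.6 to 37.0, and ORAI1 in loading replicate 4, at 37.6 CPM against 32.2 to 32.6.

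In the PIEZO1 experiment at 9 h, STIM1 in siPIEZO1 vehicle replicate 4 had 7.003 CPM against 13.6 to 14.5 in the others, and STIM1 in siPIEZO1 Yoda1 replicate 4 had 6.17 CPM against 10.8 to 11.14. ATP2B4 in NT Yoda1 replicate 1 had 173 CPM against 229 to 236, and STIM2 in NT Yoda1 replicate 4 had 2.52 CPM against 1.23 to 1.26. At 3 h, ITPR1 in siNTC compression replicate 3 had 3.60 CPM against 4.37 to 4.52, STIM1 in siNTC compression replicate 4 had 4.39 CPM against 7.06 to 7.21, and ORAI1 in NT vehicle replicate 4 had 21.7 CPM against 13.9 to 15.1.

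Effects also differed between groups by a test of the difference itself, in edgeR's quasi-likelihood test over all genes. The effect of loading differed with and without GSK205 at 9 h in ITPR1 (0.68), ITPR2 (0.48), ATP2B1 (0.32), ATP2B4 (0.31) and ORAI1 (-0.30). The effect of GSK101 differed between 9 h and 3 h in ITPR3 (1.76), ATP2A2 (0.23), ATP2B1 (-0.61), ATP2B4 (0.79), STIM1 (-0.47), STIM2 (-0.97) and ORAI1 (0.85). That of IL-1 differed in ITPR2 (0.99), ITPR3 (0.63), ATP2A2 (1.33), STIM1 (-0.38), STIM2 (-0.58) and ORAI1 (0.52), that of loading in ITPR1 (-0.53) and ATP2B1 (-0.29), and that of compression in NT cells in ATP2B1 (-0.78). These values are differences of log2 fold changes.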

How the results depend on the processing

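Of 432 values of the 9 genes, 98 were called, and 79 of these kept their call in every alternative run. No called value changed sign. The other 19 lost it in at least 1 alternative, and those that leaving out 1 library decided are named with their values above. The number of the 9 genes called moved by more than 1.5 times as follows. For loading at 3 h, 1 gene in the main test became 0 under RLE, no filter, protein-coding genes only, the replicate block, only the groups compared and DESeq2. For GSK205 at 3 h, 2 became 1 under RLE, no filter, protein-coding genes only, the replicate block and DESeq2. Loading with GSK205 against GSK205 at 3 h called 3 in place of 1 with only the groups compared. DESeq2 called 1 in place of 0 for compression in siNTC at 3 h, 2 in place of 1 for siNTC against NT at 3 h, and 5 in place of 3 for siPIEZO1 against siNTC over the stimuli at 3 h. Compression in siNTC at 9 h called 0 in place of 1 with only the groups compared, and NT vehicle at 9 h against 3 h called 0 in place of 1 with no filter and with only the groups compared. The compression effect in NT at 9 h against 3 h called 2 in place of 1 with protein-coding genes only, the replicate block and DESeq2. Smaller moves were as follows. STIM1 under GSK101 at 3 h was lost with no filter, protein-coding genes only and only the groups compared, STIM2 under IL-1 at 9 h under RLE and by DESeq2, ATP2A2 in loading with GSK205 against GSK205 at 9 h and ORAI1 in the 9 h interaction with only the groups compared, and ATP2B4 in siPIEZO1 against siNTC over the stimuli at 3 h with no filter. ITPR2 under GSK101 at 3 h was gained with no filter and the replicate block, its GSK101 time difference with protein-coding genes only and the block, STIM2 under GSK101 at 9 h with no filter, protein-coding genes only and the block, and under IL-1 at 3 h with the block. ORAI1 under compression in NT at 3 h was gained with protein-coding genes only, the block and DESeq2, ATP2A2 under compression over the 3 states at 3 h by DESeq2, the STIM1 loading time difference with only the groups compared, and STIM1 in siPIEZO1 against siNTC over the stimuli at 3 h with protein-coding genes only and the block. The cause was not tested.

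Leaving out each library in turn gave 1 to 2 called genes for GSK205 at 3 h, 0 to 2 for NT vehicle at 9 h against 3 h, 0 to 2 for Yoda1 over the 3 states at 3 h, 0 to 1 for compression at 9 h in siNTC and in siPIEZO1, 1 to 3 for the compression effect in NT between times, 0 to 1 for loading at 3 h, 2 to 4 for the loading effect between times, 0 to 2 at 3 h and 1 to 3 at 9 h for loading with GSK205 against GSK205, 1 to 2 for siNTC against NT at 3 h, 0 to 1 for siPIEZO1 against siNTC in vehicle at 9 h, and 1 to 5 over the stimuli at 3 h. In 0 of 32 comparisons did every same-numbered pair of libraries correlate above 0.1 (r of single pairs -0.162 to 0.309). In 1, siPIEZO1 against siNTC in vehicle at 9 h, every library correlated best with its own number. This check cannot exclude that libraries of the same number share a source. With the replicate number as a block, 423 of the 432 values kept their side of the threshold, 2 lost a call and 7 gained one.

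Counts over all genes moved by more than 1.5 times in these comparisons (of the leave-one-library values, those past this factor are given). Loading against DMSO at 3 h, with 1683 genes called, gave 1021 with only the groups compared, 1057 to 1110 without a library. Loading with GSK205 against loading at 3 h, with 2529 genes called, gave 1596 without a library. The interaction of loading and GSK205 at 3 h, with 372 genes called, gave 230 with the replicate block, 643 by DESeq2, 135 to 671 without a library. Loading with GSK205 against loading at 9 h, with 678 genes called, gave 1164 by DESeq2, 295 to 347 without a library. The interaction of loading and GSK205 at 9 h, with 767 genes called, gave 1164 by DESeq2, 505 without a library. The loading effect at 9 h against 3 h, with 1761 genes called, gave 1129 without a library. Compression in NT at 3 h, with 1149 genes called, gave 526 to 728 without a library. Compression in siNTC at 3 h, with 167 genes called, gave 309 with only the groups compared, 367 by DESeq2, 62 to 98 without a library. Compression in siPIEZO1 at 3 h, with 110 genes called, gave 2 with only the groups compared, 283 by DESeq2, 25 to 71 without a library. Yoda1 in NT at 3 h, with 75 genes called, gave 210 with only the groups compared, 230 by DESeq2, 13 to 394 without a library. Yoda1 in siNTC at 3 h, with 989 genes called, gave 21 with only the groups compared, 1575 by DESeq2, 229 to 593 without a library. Yoda1 in siPIEZO1 at 3 h, with 48 genes called, gave 7 with only the groups compared, 153 by DESeq2, 14 to 89 without a library. Yoda1 over the 3 states at 3 h, with 2056 genes called, gave 1133 with only the groups compared, 1205 to 1336 without a library. The comparison of siNTC against NT in vehicle at 3 h, with 1381 genes called, gave 918 without a library. The comparison of siPIEZO1 against siNTC in vehicle at 3 h, with 929 genes called, gave 244 with only the groups compared, 590 without a library. The interaction of siPIEZO1 and compression at 3 h, with 0 genes called, gave 1 by DESeq2, 1 without a library. The interaction of siPIEZO1 and Yoda1 at 3 h, with 172 genes called, gave 3 with only the groups compared, 454 by DESeq2, 37 to 297 without a library. Compression in NT at 9 h, with 653 genes called, gave 1043 with the replicate block, 419 with only the groups compared, 1191 by DESeq2, 180 to 405 without a library. Compression in siNTC at 9 h, with 1196 genes called, gave 589 with only the groups compared, 1880 by DESeq2, 374 to 717 without a library. Compression in siPIEZO1 at 9 h, with 405 genes called, gave 694 by DESeq2, 194 to 222 without a library. Yoda1 in NT at 9 h, with 0 genes called, gave 1 with protein-coding genes, 3 with the replicate block, 16 by DESeq2, 2 without a library. Yoda1 in siNTC at 9 h, with 0 genes called, gave 2 by DESeq2. Yoda1 in siPIEZO1 at 9 h, with 472 genes called, gave 2 with only the groups compared, 805 by DESeq2, 43 to 223 without a library. Yoda1 over the 3 states at 9 h, with 39 genes called, gave 136 with the replicate block, 218 by DESeq2, 5 to 25 without a library. The comparison of siNTC against NT in vehicle at 9 h, with 986 genes called, gave 543 to 620 without a library. The comparison of siPIEZO1 against siNTC in vehicle at 9 h, with 2017 genes called, gave 1313 with only the groups compared, 1261 to 1310 without a library. The interaction of siPIEZO1 and compression at 9 h, with 202 genes called, gave 44 with only the groups compared, 478 by DESeq2, 60 to 357 without a library. The interaction of siPIEZO1 and Yoda1 at 9 h, with 5 genes called, gave 16 with no filter, 2 with protein-coding genes, 88 with the replicate block, 0 with only the groups compared, 103 by DESeq2, 0 to 29 without a library. The compression effect in NT at 9 h against 3 h, with 1861 genes called, gave 1205 without a library.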
